A study of Mus musculus with 2 samples.

Results

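This section describes 10 noncoding genes in LPS-treated mouse macrophages: the nuclear RNAs Malat1 and Neat1, the inflammation-linked Mir155hg and Ptgs2os2, the snoRNA host genes Gas5, Snhg1, Snhg12 and Snhg15, and the imprinted RNAs Meg3 and H19. They were taken by symbol from the 34745 gene identifiers of the table, and all 10 were matched through their Ensembl identifier. The cells were primary macrophages grown from bone marrow of C57BL/6 mice, all treated with lipopolysaccharide (LPS), the bacterial product that activates macrophages through TLR4. One group was transfected with a control antisense oligonucleotide (Control-ASO) and the other with an oligonucleotide named for Acly (AclyE14-ASO). Each group was 1 library, no sample without LPS was analysed here, and the labels used here state neither dose nor time for either treatment. A difference below is therefore a difference between 2 libraries with no replicate check, and no p-value is given.

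Long noncoding RNAs act as RNA. Malat1 is retained in nuclear speckles, the bodies that store splicing factors, and Neat1 is the scaffold on which paraspeckles assemble. Mir155hg is the primary transcript of the microRNA miR-155, which is strongly induced in macrophages by LPS, and Ptgs2os2, also known as lincRNA-Cox2, lies near the cyclooxygenase gene Ptgs2 and is induced by the same signals. A snoRNA host gene carries small nucleolar RNAs, the guides for ribosomal RNA modification, in its introns, and its spliced exons are often removed by nonsense-mediated decay when they are translated. Meg3 and H19 are imprinted RNAs of developing and mesenchymal tissue.

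The Control-ASO library held 14215397 gene counts and the AclyE14-ASO library 12751076. The 10 genes together took 2972 counts, or 0.0209% of the total (exact 95% interval 0.0202% to 0.0217%), in the control library and 2677 counts, 0.0210% (0.0202% to 0.0218%), in the other. As a check of the labels, Acly itself was at 13.3 and 7.35 FPKM (1549 and 768 counts), a ratio of counts per library total of 0.553 (exact 95% interval 0.506 to 0.603). The 9 listed macrophage markers all averaged at least 1 FPKM. By counts 3 were higher by 1.5-fold, among them Itgam and Fcgr1, and 1, Cd68, was lower. Within 1.5-fold, Csf1r, Adgre1 and Mrc1 had count ratios of 0.784, 0.795 and 0.681, and Lyz2 and Mertk of 1.25 and 1.13. Among all genes with at least 20 counts over both libraries, 15.0% were higher and 15.6% lower by that limit. Of 12 fibroblast and stromal markers, 10 had at least 20 counts over both libraries, and these 10 were each higher by 1.5-fold or more in counts with the AclyE14-ASO. The summed level of the 12 went from 49.3 to 216 FPKM, and Postn was the 1 marker without a count in the control library. Summed counts of the 4 endothelial, 7 neutrophil, 6 lymphocyte and 6 dendritic cell markers had ratios of 0.547, 1.81, 1.58 and 5.79, with 1, 3, 1 and 3 markers at 0 in both libraries (Tek; Ly6g, S100a9 and Elane; Cd3e; Xcr1, Siglech and Flt3). The dendritic cell sum was mostly Fscn1, with 216 and 1179 counts, and the lymphocyte sum mostly Lck, with 216 and 315. The endothelial sum was mostly Kdr (1518 and 675 counts), whereas Cdh5 was higher (62 and 100). Csf3r (327 and 463 counts) and S100a8 (276 and 520) made up most of the neutrophil sum. Of the 5 erythroid and mast cell markers only Kit was counted, 5 times in each library. In bulk RNA, fewer cells of a type and less RNA per cell cannot be told apart.

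Sequences are shown here for the host genes' start sites and for the microRNAs carried by Mir155hg and H19. Many snoRNA hosts, Gas5 among them, are known for a 5′ terminal oligopyrimidine (TOP) tract, which ties their fate to ribosomal protein mRNAs. The windows run from 100 bases before to 30 bases from the RefSeq start of each host (GRCm38.p6). Capitals mark a TOP tract, searched as a C followed by at least 4 bases that are C or T and beginning within 5 bases of the start on the gene's strand, and the palindrome TGACGTCA, the cyclic AMP response element.
Gas5, chr1:161035066-161035195, plus strand: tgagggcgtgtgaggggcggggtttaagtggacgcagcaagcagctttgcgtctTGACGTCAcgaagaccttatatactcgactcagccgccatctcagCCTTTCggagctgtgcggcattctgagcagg
Snhg12, chr4:132308578-132308707, plus strand: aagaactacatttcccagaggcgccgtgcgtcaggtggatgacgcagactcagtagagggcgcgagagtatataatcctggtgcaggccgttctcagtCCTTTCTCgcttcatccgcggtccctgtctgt
Snhg1, chr19:8723387-8723516, plus strand: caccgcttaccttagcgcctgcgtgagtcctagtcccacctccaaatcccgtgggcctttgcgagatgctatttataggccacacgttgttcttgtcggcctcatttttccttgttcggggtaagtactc
Snhg15, chr11:6528731-6528860, minus strand: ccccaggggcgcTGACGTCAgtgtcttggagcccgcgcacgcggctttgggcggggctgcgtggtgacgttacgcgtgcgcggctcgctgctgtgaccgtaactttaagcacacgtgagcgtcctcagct

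A tract by this rule was found at Gas5, 6 bases long, and at Snhg12, 8 bases long, and not at Snhg1 or Snhg15. Among the other genes, Ptgs2os2 and 1 of the starts of Meg3 hold tracts of 5 bases. Such a tract is common, with 18.3% of all 32851 promoters of the RefSeq table. Gas5 has another RefSeq start, at 161034601, whose window holds neither feature. TGACGTCA was found before the starts of Gas5 and Snhg15, and also at Meg3, and 1.79% of all promoters of 300 bases (250 before to 50 after the start) hold it. RefSeq promoters were matched for 8 of the 10 genes. Searched on both strands in the same 300 bases, TATAAA was found at Snhg1 and Meg3 (13.6% of all promoters), and neither TGANTCA (7.81%) nor the NF-kB consensus (8.46%) was found at any of the 8.

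The microRNA lines give the mature products encoded in Mir155hg and H19, 5′ to 3′, with the seed (bases 2 to 8) in capitals.
mmu-miR-155-5p, chr16:84714143-84714165: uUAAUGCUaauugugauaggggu
mmu-miR-155-3p, chr16:84714182-84714202: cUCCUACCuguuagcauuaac
mmu-miR-675-5p, chr7:142577112-142577133: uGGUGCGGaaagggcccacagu
mmu-miR-675-3p, chr7:142577078-142577099: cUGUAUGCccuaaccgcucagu

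No other mature mouse microRNA of the RefSeq table shares any of these 4 seeds. The Mir155 hairpin lies in an exon of both annotated Mir155hg transcripts, and the Mir675 hairpin in an exon of 3 of the 7 H19 transcripts. Meg3 also carries microRNA hairpins in exons, Mir770 in 1 and Mir1906-1 in 5 of its 11 transcripts. The values below are those of the host RNAs, and the mature microRNAs and intronic snoRNAs were not analysed here.

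The 10 genes moved in both directions. On counts per library total, 3 were higher by 1.5-fold or more with the AclyE14-ASO (Meg3, H19 and Ptgs2os2), 2 were lower (Snhg12 and Neat1) and 5 lay between. Among the 11576 genes of the table with at least 20 counts over both libraries, 15.0% were higher and 15.6% lower by the same rule. The counting interval lay above 1 for 4 of the genes and below 1 for 3, against 23.1% and 37.2% of those genes, so an interval that leaves out 1 was common and says nothing of variation between cultures. Past 2-fold higher were 2, Meg3 and H19, against 9.31% of those genes. Snhg12, with a count ratio of 0.476, was past 2-fold lower, and the share of all genes beyond that limit was not computed. Only 7 of the 10 averaged at least 1 FPKM. On the log2 ratio of FPKM + 1, which understates the change of low genes, Ptgs2os2 was higher by 1.5-fold, Snhg12 was lower and the other 5 lay between. Among all 8658 genes at that level 7.03% were higher and 8.48% lower, and centring the ratios on the median gene turned these shares to 9.83% and 4.69% without changing either call among the 7. The median log2 ratio was 0.11 over the 7 genes and -0.13 over all 8658.

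**Figure D1:**
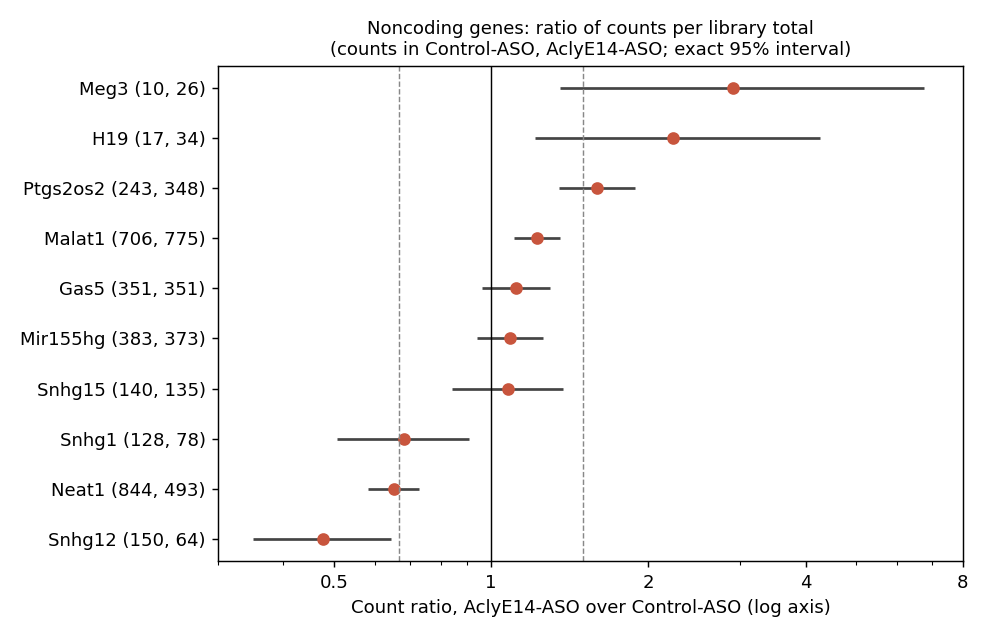
Ratio of counts per library total (AclyE14-ASO over Control-ASO, log axis) for the 10 genes, with counts in the 2 libraries beside each name; points are ratios, bars exact 95% intervals for counting error, and dashed lines mark 1.5-fold. Meg3 (2.90) and H19 (2.23) have the highest ratios and the widest intervals, and Snhg12 (0.476) has the lowest ratio.

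The levels of these genes depend on the length by which the deposited FPKM values were divided. That length, recovered from each gene's FPKM and count, equalled the summed length of all distinct annotated exons, overlapping ones counted repeatedly, for 66.4% of 10391 genes (tolerance 0.1%), and the merged exon length for 7.69%. Genes with many annotated isoforms are pushed down by this. Gas5, with 25 annotated transcripts, was divided by 11685 bases against 3760 bases of merged exons, a factor of 3.11. Snhg1, with 18 transcripts, was divided by 11131 bases against 2969, a factor of 3.75. Mir155hg and Ptgs2os2 were divided by their merged length, 1433 and 1745 bases. The ratio between the libraries does not depend on the length except through the pseudocount and the limit of 1 FPKM.

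**Figure D2:**
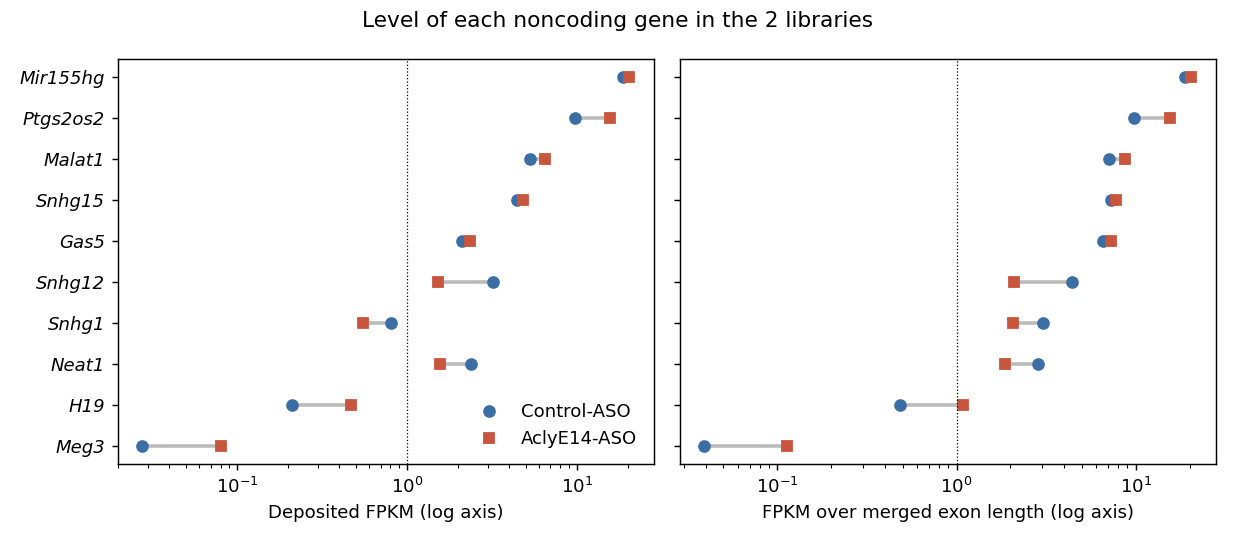
Level of each gene in the 2 libraries as deposited FPKM (left) and as FPKM recomputed over merged exon length (right), log axes; circles are Control-ASO, squares AclyE14-ASO, and the dotted line is 1 FPKM. Gas5 and Snhg1 sit higher in the right panel (6.57 and 3.03 FPKM in Control-ASO) than in the left (2.11 and 0.809 FPKM), while Mir155hg and Ptgs2os2 keep their place.

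In both scales Mir155hg was the highest of the 10 and Meg3 the lowest. Over merged exon length, the means of the 2 libraries fell in the order Mir155hg (19.6 FPKM), Ptgs2os2 (12.7), Malat1 (7.91), Snhg15 (7.52), Gas5 (6.94), Snhg12 (3.24), Snhg1 (2.55), Neat1 (2.36), H19 (0.785) and Meg3 (0.0758). The levels of Malat1, Snhg15 and Gas5 lay close to each other in each library. Snhg12 was above Snhg1 and Neat1 with the control ASO (4.39 against 3.03 and 2.86 FPKM), whereas the 3 were at 2.09, 2.06 and 1.86 FPKM with the AclyE14-ASO. The recovered length of Malat1, Neat1, Snhg12 and H19 did not equal the summed distinct annotated exons (for Snhg12, 3289 against 6674 bases). The annotation on which the counts were made is not given, so the merged-length levels and order of these genes are uncertain.

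Malat1 (ENSMUSG00000092341, chromosome 19, 5795690 to 5802672, minus strand, GRCm38, lincRNA) had 706 counts and 5.32 FPKM in the Control-ASO library and 775 counts and 6.51 FPKM in the AclyE14-ASO library. The count ratio was 1.22 (interval 1.10 to 1.36), a small excess that stayed within 1.5-fold. The mature Malat1 RNA ends in a triple helix rather than a poly(A) tail, and the labels' protocols name mRNA capture beads as well as a stranded total RNA kit; how much of the RNA such a capture recovers was not tested.

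Neat1 (ENSMUSG00000092274, chromosome 19, 5824708 to 5845478, minus strand, lincRNA) went the other way. It had 844 counts and 2.39 FPKM with the control ASO and 493 counts and 1.56 FPKM with the AclyE14-ASO. The count ratio was 0.651 (0.582 to 0.729), past the 1.5-fold limit, while the log2 ratio of FPKM + 1 was -0.41, within it. The annotation spans both the long form of 20771 bases, which builds paraspeckles, and the short form that shares its 5′ end, and a gene-level count does not separate them.

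Malat1 and Neat1 are neighbours, transcribed from the same strand. The coding gene Frmd8, only 4223 bases from Neat1, was at 7.03 and 9.14 FPKM (ratio interval 1.16 to 1.45). Frmd8 and Malat1 were therefore a little higher with the AclyE14-ASO, whereas Neat1, which lies between them, was lower.

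The protein partners of these 2 RNAs were listed to set beside them. Of 15 paraspeckle proteins 14 lay within 1.5-fold, 0 were higher and 1 was lower, with a median log2 ratio of -0.17. The lower one was Cpsf6, a subunit of the complex that sets Neat1's 3′ end (4.15 and 2.43 FPKM, log2 ratio -0.59). Taf15 followed at -0.55, and Ewsr1, another member of the same RNA-binding family, was at 28.6 and 19.9 FPKM. Nono, a core paraspeckle protein and the most abundant of the list, was at 31.2 and 31.0 FPKM. At the upper end Rbm3 had a log2 ratio of 0.12 and Hnrnpk one of 0.10. Among 15 nuclear speckle proteins none was higher and 2 were lower (median -0.21). The lower ones were the SR protein Srsf2 (20.6 and 10.6 FPKM) and Rnps1 (47.0 and 29.0 FPKM). U2af2 had the highest level, 66.9 and 65.0 FPKM, and Srsf3 was at 12.2 and 12.1 FPKM. The median of all genes was -0.13.

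Mir155hg (ENSMUSG00000097418, chromosome 16, 84703167 to 84715245, plus strand, lincRNA), the source of miR-155, did not differ beyond counting error. It had 383 counts and 18.8 FPKM with the control ASO and 373 counts and 20.4 FPKM with the AclyE14-ASO. The count ratio was 1.09 and its interval, 0.939 to 1.26, includes 1. Mrpl39, a mitochondrial ribosomal protein gene that ends 2330 bases away on the other strand, was lower (29.9 and 17.8 FPKM, ratio 0.596, 0.540 to 0.656).

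Genes widely described as miR-155 targets were mixed. Of 16 measured members 1 was higher, 4 were lower and 11 lay within 1.5-fold, with a median log2 ratio of -0.33. Bcl6, a transcriptional repressor, was at 10.4 and 2.56 FPKM, and Socs1, a brake on cytokine signalling, at 50.5 and 22.2 FPKM. Cebpb, a transcription factor of myeloid cells and the most abundant of the list, was at 98.2 and 140 FPKM. These mRNA levels are not a measure of miR-155 activity.

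Ptgs2os2 (ENSMUSG00000097754, chromosome 1, 150159043 to 150164948, minus strand, lincRNA) was higher with the AclyE14-ASO. It had 243 counts and 9.80 FPKM in the control library and 348 counts and 15.6 FPKM in the other. This gave a count ratio of 1.60 (1.35 to 1.89), so the lower bound falls short of 1.5-fold. Ptgs2, the inducible cyclooxygenase gene, lies 50815 bases away on the other strand and was the nearest coding gene. Its count ratio was 1.76 (1.73 to 1.80), from 16420 and 25978 counts. Another transcript of that locus, Ptgs2os, was scarce, with 18 and 25 counts (ratio 1.55, 0.812 to 3.01). The annotated Ptgs2os2 gene overlaps no other gene, so its count does not hold reads of Ptgs2 by annotation. In the AclyE14-ASO library the 10 stromal markers with at least 20 counts were higher too, and their part in this result was not tested.

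Of the 4 snoRNA hosts Snhg12 was lower by 1.5-fold, and Snhg1, Gas5 and Snhg15 lay within it. Snhg12 (ENSMUSG00000086290, chromosome 4, 132308623 to 132311024, plus strand, lincRNA), host of 4 annotated snoRNA loci, had 150 counts and 3.21 FPKM with the control ASO and 64 counts and 1.53 FPKM with the AclyE14-ASO. Its count ratio of 0.476 (0.349 to 0.641) was the lowest of the 10 genes, and the whole interval lay beyond 1.5-fold. The nearest coding gene, Trnau1ap, which ends 738 bases away on the other strand, had 214 and 160 counts (ratio 0.834, 0.675 to 1.03).

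Snhg1 (ENSMUSG00000108414, chromosome 19, 8723475 to 8726443, plus strand, processed transcript), host of 8 snoRNA loci, had 128 and 78 counts, at 0.809 and 0.550 FPKM. Its count ratio was 0.679 (0.506 to 0.907), just inside 1.5-fold. It missed the limit of 1 FPKM on the deposited values, although its merged-length level was 3.03 and 2.06 FPKM. Slc3a2, an amino acid transporter chain whose gene lies 105 bases away in the opposite direction, had a count ratio of 1.07 (1.04 to 1.10). Wdr74 on the other side was lower, with 563 and 335 counts (ratio 0.663, 0.578 to 0.761).

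Gas5 (ENSMUSG00000053332, chromosome 1, 161034422 to 161038539, plus strand, processed transcript), host of 9 snoRNA loci and known as a decoy of the glucocorticoid receptor, had 351 counts in each library, at 2.11 and 2.36 FPKM. The count ratio was 1.11, with an interval that begins at 0.959 and includes 1. Zbtb37 overlaps it on the opposite strand, with 63 counts in each library, and summing both genes left the ratio at 1.11 (0.970 to 1.28). Snhg15 (ENSMUSG00000085156, chromosome 11, 6525591 to 6528760, minus strand, processed transcript), host of Snora9, had 140 and 135 counts, at 4.48 and 4.82 FPKM, with a ratio of 1.08 (0.842 to 1.37). Gas5 and Snhg12 both carry a TOP tract at the start shown above, and their ratios were 1.11 and 0.476, with intervals that do not overlap.

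The annotation was searched for every noncoding gene whose body holds a snoRNA gene on its own strand. The search found 51 such hosts among the measured genes, of which 20 had at least 20 counts. Of these, 5 were higher by 1.5-fold, 1 was lower, Snhg12, and 14 lay between, beside 15.0% higher and 15.6% lower among all genes with that many counts. The median log2 count ratio was -0.03, and over the 201 coding hosts with at least 20 counts it was -0.12, with 19 higher and 28 lower. The higher ones included 2410006H16Rik, with 189 and 381 counts (28.8 and 64.7 FPKM, ratio 2.25, 1.88 to 2.69), and AI506816, with 417 and 615 counts (ratio 1.64, 1.45 to 1.87). Gm15832 had 87 and 139 counts, Snhg18 had 8 and 19 counts, and Rian, of the Meg3 locus, had 20 and 126. Snhg18 and Rian stayed below a mean of 1 FPKM.

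**Figure D3:**
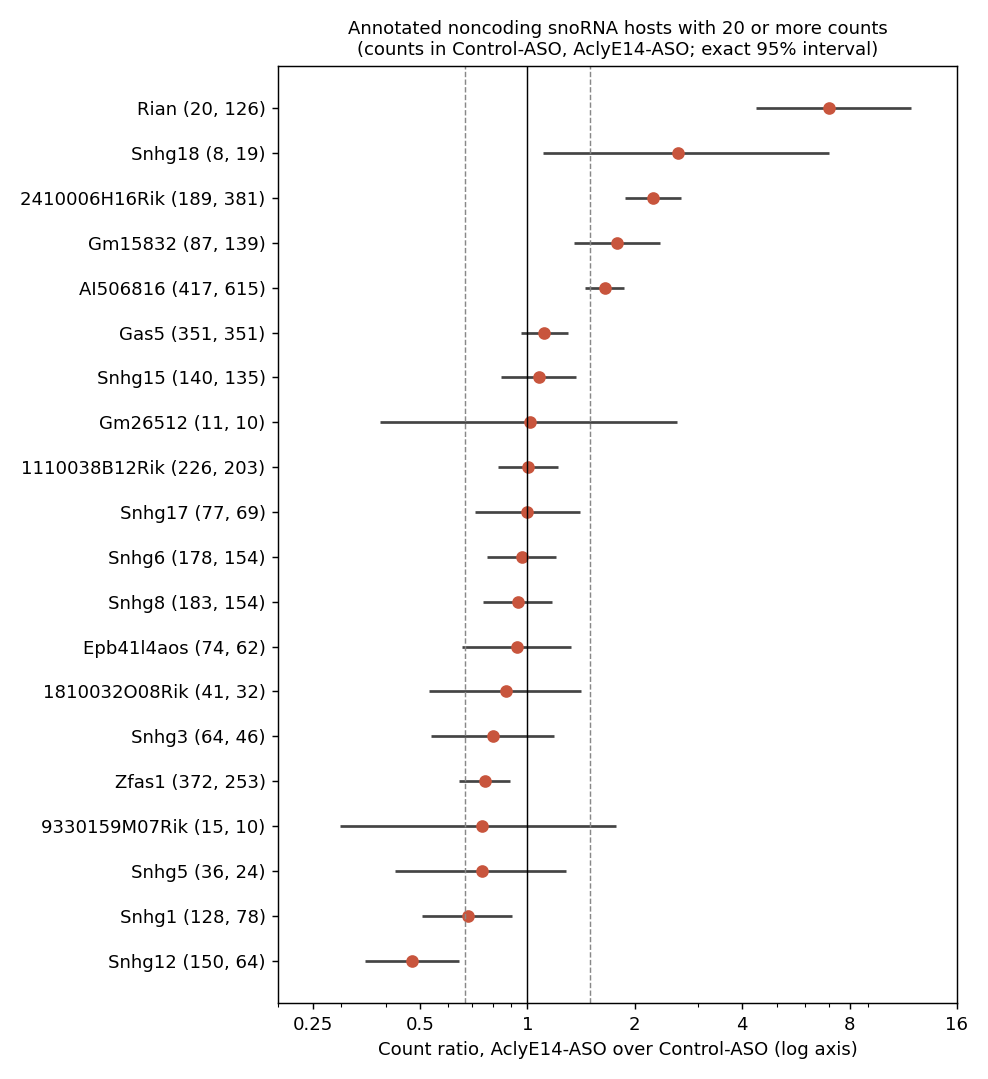
Ratio of counts per library total (AclyE14-ASO over Control-ASO, log axis) for the 20 annotated noncoding snoRNA hosts with at least 20 counts, counts of the 2 libraries beside each name; bars are exact 95% intervals for counting error and dashed lines mark 1.5-fold. Snhg12 is the lowest at 0.476, Gas5 and Snhg15 sit near 1, and Rian is the highest at 7.02.

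A list of other snoRNA hosts, which also held the microRNA host Mir17hg and the ribozyme Rmrp, matched 14 of 17 symbols. On the FPKM scale 4 of these reached a mean of 1 FPKM and all 4 lay within 1.5-fold (median log2 ratio -0.15). Snhg8 was the most abundant, at 7.35 and 6.89 FPKM. Zfas1 had 372 and 253 counts (log2 ratio -0.33), Snhg3, which lies near Snhg12 on chromosome 4, 64 and 46 (-0.22), and Snhg6 178 and 154 (-0.04). By counts 9 of the list had at least 20, of which Snhg18 was higher by 1.5-fold and 2 were lower. The lower ones were Snhg20, with 34 and 14 counts (ratio 0.459, 0.228 to 0.878), and Mir17hg, host of the miR-17 cluster, with 19 and 5 counts (0.293, 0.0856 to 0.812). Neither was among the noncoding snoRNA hosts with at least 20 counts found by the annotation search above. Zfas1 had a ratio of 0.758 (0.644 to 0.892) and Snhg3 one of 0.801 (0.536 to 1.19).

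Genes of the pathways that act on snoRNA hosts were taken from lists. Of 14 measured nonsense-mediated decay factors 0 passed 1.5-fold in either direction, with a median log2 ratio of -0.26. Smg5, an adaptor of the decay step, was at 6.96 and 4.33 FPKM, Smg8, a subunit of the SMG1 kinase complex, at 9.57 and 6.24 FPKM, and Upf2 at 2.82 and 2.89 FPKM. The termination factor Etf1 had the highest level, 67.0 and 53.5 FPKM. By counts Smg5 and Smg8 were lower beyond 1.5-fold, with ratios of 0.621 (0.557 to 0.692) and 0.652 (0.569 to 0.747). Of 11 measured snoRNP proteins and coding hosts of the nucleolus none was higher and 2 were lower (median -0.31). The lower ones were Rrp9, a U3 snoRNP protein (6.61 and 3.34 FPKM), and Nop14, a small-subunit processing factor (14.1 and 7.64 FPKM). Nhp2, a box H/ACA protein and the most abundant, was at 38.3 and 34.1 FPKM. Nop10 was at 18.1 and 18.7 FPKM, and Nop58 had a log2 ratio of 0.30. Of 18 translation factors and other mRNAs with a TOP tract 16 lay within 1.5-fold, with a median of -0.01. Eif4a2 was lower (3.75 and 1.90 FPKM) and Nap1l1 higher (2.29 and 5.26 FPKM). Eef1a1, the most abundant, was at 1016 and 991 FPKM, Tpt1 at 37.1 and 53.2 FPKM, and Ybx1 had a log2 ratio of -0.24.

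Meg3 and H19 were scarce in both libraries and higher with the AclyE14-ASO. Meg3 (ENSMUSG00000021268, chromosome 12, 109541001 to 109571726, plus strand, lincRNA) had 10 counts, 0.0277 FPKM, with the control ASO and 26 counts, 0.0802 FPKM, with the AclyE14-ASO. Its count ratio was 2.90, with a wide interval of 1.35 to 6.74. H19 (ENSMUSG00000000031, chromosome 7, 142575529 to 142578143, minus strand, lincRNA) had 17 counts, 0.210 FPKM, and 34 counts, 0.469 FPKM. Its ratio was 2.23 (1.21 to 4.26). At these counts both intervals reach below 1.5-fold, and a pseudocount of 1 FPKM all but hides the difference, with log2 ratios of 0.07 and 0.28.

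The neighbours of Meg3 in the Dlk1 to Dio3 imprinted domain were uneven. Rian, which follows Meg3 on the same strand and holds 13 snoRNA loci, had 20 and 126 counts (ratio 7.02, 4.36 to 11.9). Mirg, further along, had 6 and 7 counts. Dlk1, a coding gene of the domain and a preadipocyte and stromal factor, had 4 and 101 counts (ratio 28.1, 10.7 to 105). Rtl1 had 1 and 0 counts. At the H19 locus the coding neighbour Igf2 had only 2 and 1 counts, and Mrpl23 on the other side had 125 and 93.

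Other imprinted genes were listed with them. Of 7 that averaged at least 1 FPKM 3 were higher, 0 lower and 4 between, with a median log2 ratio of 0.56. Grb10 and Ndn passed the level limit only through the AclyE14-ASO library, so that count and median are no support. Dcn, the matrix proteoglycan decorin and also a stromal marker, was at 7.29 and 24.3 FPKM, Ndn had 5 and 42 counts and Grb10 48 and 294. Cdkn1c, a cell cycle inhibitor and the most abundant of the list, was at 230 and 167 FPKM, and Plagl1 had 423 and 199 counts.

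Stromal markers moved with Meg3, H19, Rian and Dlk1. The summed counts of the 12 fibroblast and stromal markers were 2305 and 9678, a ratio of 4.68 (4.47 to 4.90). Col1a1, a fibrillar collagen, had 295 and 1790 counts, Col3a1 18 and 193, the fibroblast receptor Pdgfra 72 and 424, and Thy1 6 and 76. Lum, with 6 counts in each library, and Postn, with 0 and 5, had too few counts to be called. The part of these cells in the values of Meg3 and H19 was not tested.

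**Figure D4:**
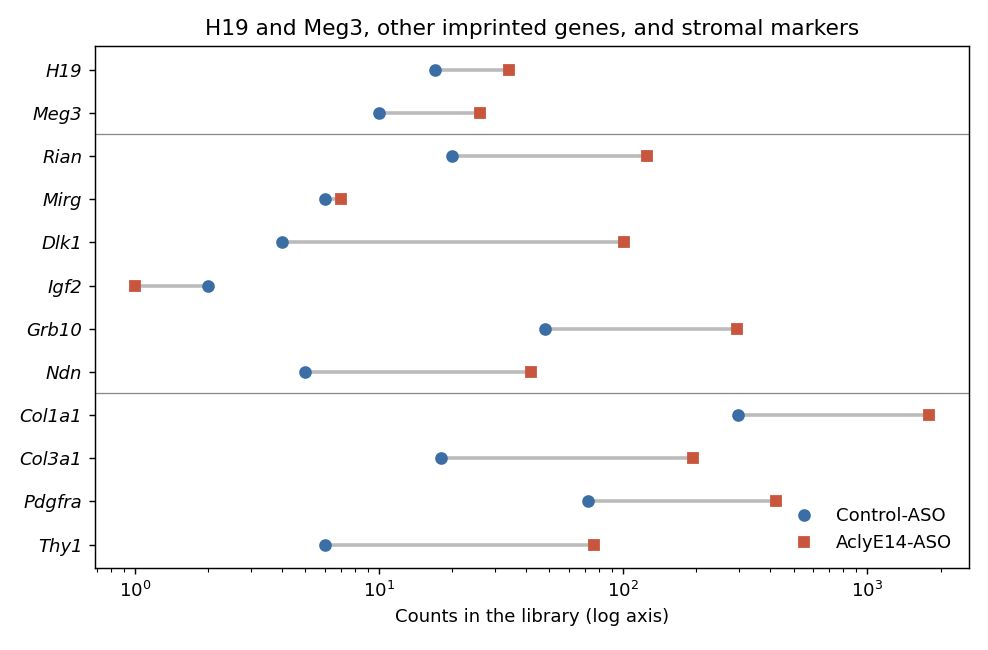
Counts in the Control-ASO (circles) and AclyE14-ASO (squares) libraries on a log axis for H19 and Meg3 (top), other imprinted genes (middle) and 4 stromal markers (bottom); counts are not scaled to the library totals. H19 (17 and 34) and Meg3 (10 and 26) are higher with the AclyE14-ASO, as are Rian, Dlk1, Grb10, Ndn and the 4 markers, whereas Mirg and Igf2 stay under 10 counts.

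Long noncoding genes as a class give the setting for the 10. GENCODE M21 classes 8974 genes of the table as long noncoding. They took 0.306% of the control counts (0.303% to 0.309%) and 0.285% (0.282% to 0.288%) of the AclyE14-ASO counts. At a mean of 1 FPKM or more there were 139, the 7 described above among them. Of these 11 were higher by 1.5-fold (7.91%) and 22 lower (15.8%), beside 7.02% and 8.32% of the protein-coding genes at that level. Some called genes passed the level limit only through 1 library, such as Gm20634 (0.147 and 2.30 FPKM) and 3110056K07Rik (2.03 and 0.453 FPKM). Gm15247, called lower on 12 and 3 counts, had an interval that includes 1 (0.0505 to 1.03). These shares are therefore no support for a shift of the class. After centring on the median gene 14 of the 139 were higher and 16 lower. Their median log2 ratio was -0.16, against -0.13 for those 8292 protein-coding genes. The most abundant was AW112010, an interferon-induced transcript of macrophages, at 314 and 428 FPKM. Mir155hg was among the 38 of at least 5 FPKM, as were Ptgs2os2 and Malat1.

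Among those 38, Ptgs2os2 was one of the 5 with the largest log2 ratio. The others were 2410006H16Rik (1.14), A630072M18Rik (1.03), Zeb2os (0.90) and AI506816 (0.63). Zeb2os had 153 and 271 counts, while Zeb2, which it overlaps on the opposite strand, had 3249 and 3162. A630072M18Rik had 600 and 1174 counts, and the coding gene Rsbn1l, overlapped on the opposite strand, 344 and 381. The libraries were stranded by their label, but whether counting used the strand is not stated, so the values of such pairs are uncertain. At the other end were Gm43351 (-1.99), Gm14461 (-1.53), Ifi30 (-1.09), G530011O06Rik (-0.79) and Gm43197 (-0.72). Ifi30, the lysosomal thiol reductase, and Gm14461 are protein-coding in RefSeq, and without genes of that kind 11 were higher and 19 lower of 130. Gm43197 overlaps Gm20559 on the same strand, so its reads could be shared. Malat1 and Meg3 each overlap 1 gene on the opposite strand, Gm37376 with 2 and 4 counts and Gm26906 with none.

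**Figure D5:**
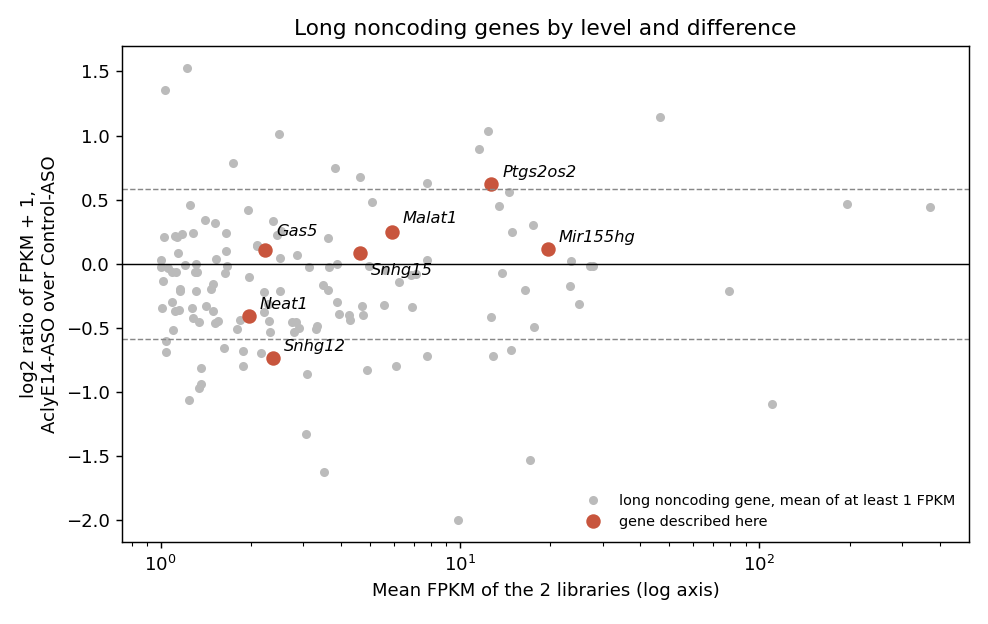
Log2 ratio of FPKM + 1, the AclyE14-ASO library over the Control-ASO library, against mean FPKM (log axis) for 139 long noncoding genes at or above 1 FPKM; the 7 described here are large and named, and dashed lines mark 1.5-fold. Ptgs2os2 (0.62) lies above the upper line, Snhg12 (-0.74) below the lower one and the other 5 between.

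Other long noncoding RNAs of macrophages or of broad expression were taken from a list. Of 30 symbols 29 matched, 9 reached a mean of 1 FPKM and all 9 lay within 1.5-fold, with a median log2 ratio of -0.07. The largest was AW112010 (0.44), followed by Dnmt3aos (0.22). The lowest were Tug1 (728 and 409 counts, log2 ratio -0.50) and Gm16685 (41 and 24 counts, -0.37). Gm14005, the locus also known as Morrbid, which controls the lifespan of short-lived myeloid cells, had 295 and 204 counts. Mir22hg, host of miR-22, had 239 and 220. By counts 14 of the list had at least 20, of which Rian and Ptgs2os were higher by 1.5-fold and Tug1, Gm16685 and Mirt1 lower. Tug1 had a ratio of 0.626 (0.554 to 0.708), whereas the interval of Gm16685, 0.377 to 1.11, includes 1.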

How the data were processed

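One deposited table gave, per the file headers, raw counts per gene and FPKM for both libraries. HISAT2, StringTie 1.3.0, edgeR and mm10 are named in the submitters' processing notes, without a role, and no source here states strand use or the handling of shared reads. The authors' FPKM values are scaled to the summed gene counts. Symbols and classes came from GENCODE M21 (34267 of 34745 identifiers matched), promoters and microRNAs from RefSeq GRCm38.p6.

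With 1 library a group no test was run. Computed here were log2 ratios of FPKM + 1 for genes averaging at least 1 FPKM, called at 1.5-fold, and ratios of counts per library total with exact (Clopper-Pearson) conditional binomial 95% intervals, which cover counting error only. Count ratios were called over genes with at least 20 counts in both libraries together. Counts were also simulated for this comparison, with counting (Poisson) error only and no variation between cultures. Over 8629 genes, calls at 1.5-fold recovered 100% of genes raised 3-fold and 86% of genes lowered 3-fold, with 0.190% of unchanged genes called. The interval held the true ratio for 96.0% of simulated unchanged genes. These shares do not give the rate of false calls between real cultures.

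The 10 genes and the gene lists were chosen with earlier results of these data known. The rule for named genes took the 10, each list's most abundant member and up to 2 at each end of the log2 ratio, neighbouring and overlapping genes, Acly, and the 5 highest and 5 lowest long noncoding genes of at least 5 FPKM. Further genes, and the search for snoRNA hosts, were added after values were seen. The values of 2 genes that the rule names are not reported here. For TMM scaling edgeR 4.0.16 was run under R 4.3.3, and all else used Python 3.11.15, NumPy 2.4.6, pandas 2.3.3, SciPy 1.17.1 and matplotlib 3.10.9. Alternatives were other pseudocounts, filters, limits and scalings.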

Additional observations from a re-analysis of the deposited data

How the results depend on the processing

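The log2 ratios of the 10 genes kept their sign in all 63 recomputed values. The settings were pseudocounts of 0.1 and 5 FPKM, centring on the median gene, TMM factors, counts without a pseudocount and merged exon lengths. For Malat1, Gas5 and Meg3, reads were also summed over overlapping genes. Most of these values could not change sign, because both libraries share the pseudocount and the exon length. Only centring, TMM factors and the summed reads of Malat1 and Gas5 could have turned a sign. In 4 of the 63 the value moved beyond the counting interval: Meg3 without a pseudocount and Neat1 without one or with pseudocounts of 0.1 and 5 FPKM. The 1 gene higher by 1.5-fold, Ptgs2os2, became 0 at a 2-fold limit and 0 with a pseudocount of 5 FPKM. The 1 lower gene, Snhg12, became 2 with Neat1 added, without a pseudocount and with one of 0.1 FPKM. The number lower became 0 at 2-fold on FPKM + 1, with a pseudocount of 5 FPKM, and under a minimum of 5 FPKM, which keeps 3 of the genes. The median of the measured genes ranged from 0.05 to 0.25. Of the long noncoding genes, 11 higher and 22 lower became 5 and 6 at 2-fold, 5 and 7 at a minimum of 5 FPKM, 24 and 47 without a filter, 3 and 5 with a pseudocount of 5 FPKM, 14 and 41 with one of 0.1 FPKM, and 14 and 43 without one. The use of merged exon lengths, and leaving out genes that RefSeq lists as protein-coding, were chosen after seeing the data. No paired analysis was possible because each group had 1 library. Depth limits Meg3 and H19 most, whose counting intervals are the widest of the 10.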
